A study of Gallus gallus with 24 samples.

Results

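Melanin synthesis genes were followed as a measure of the pigmented tissue in chick eyes. The 8 genes were TYR, TYRP1, DCT, PMEL, MITF, SLC45A2, OCA2 and MLANA, of 13009 genes that the array names by a single symbol, and they were measured by 14 of its 38535 probe sets. A probe set was taken where the platform's gene symbol was one of the 8. Each gene is described by its probe set of highest mean signal, with the others given beside it. TYR, TYRP1, DCT, PMEL, SLC45A2 and MLANA have 1 probe set each, OCA2 has 3 and MITF has 5. One dim MITF probe set was left out of the tests by the filter on low signals, so 13 were tested, the brightest of each gene among them.

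The tissue was retina dissected together with its retinal pigment epithelium (RPE) from both eyes of 12 white Leghorn chicks. At 1 week of age each chick had a translucent white goggle glued over 1 eye, on alternating sides, and the fellow eye was left uncovered. Diffuse vision of this kind leads to form-deprivation myopia, in which the eye grows too long. Of 12 chicks, 6 were killed after 6 h of wear and 6 after 3 d. The 4 groups of 6 arrays were thus open and goggled eyes at each time. Each array held the RNA of 1 eye, and all chicks carried a goggle, so the open eye is the untreated eye of a treated bird. All chicks had ether anaesthesia at fitting, and the 3 d chicks were older at death by the difference in wear.

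Melanin is made inside melanosomes. Tyrosinase, the product of TYR, carries out the first and limiting oxidation of tyrosine, and the related proteins of TYRP1 and DCT (dopachrome tautomerase) act further along toward eumelanin. PMEL forms the fibrils on which the pigment is laid down, MLANA helps PMEL mature, the OCA2 and SLC45A2 proteins are melanosomal transporters that keep the lumen fit for tyrosinase, and MITF is the transcription factor known in mammals to switch on most of these genes. In the back of the eye pigment is made both by the RPE, an epithelium of neural origin, and by melanocytes of the choroid, which come from the neural crest and should be left behind in a clean retina/RPE dissection. White Leghorn feathers are white through the Dominant white allele of PMEL, while the eyes of such birds are pigmented.

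The labelled tissue was checked against its markers. Of 21 genes fixed as markers of the pigment epithelium other than melanin genes, 19 were tested. RPE65, the isomerase of the visual cycle, lay between 2211 and 5387 on all 24 arrays, and RGR, an opsin of the RPE, between 1650 and 4531. The summed signal of the 19 ran from 14612 to 26558. The deposited values were linear signal intensities, scaled so that every array had a 2% trimmed mean of 150.03, and the median signal of an array was between 30.2 and 44.2. Actin controls gave 3'/5' signal ratios, which grow as RNA degrades, from 2.40 to 5.05. Genes of adjoining tissues varied widely between arrays. The mean log2 value ran from 4.55 to 8.77 for striated muscle, with its highest in 6 h goggled replicate 6, and from 6.75 to 9.64 for blood. That of choroid stroma genes was more than 1 above the median of its group in 6 h open replicate 5 (7.48), 3 d open replicate 2 (7.53) and 3 d goggled replicate 3 (8.24), against group medians between 5.72 and 6.11. Many results are therefore also given without these 3 eyes. In a whole-tissue sample, fewer pigmented cells and less of an mRNA in each cell cannot be told apart.

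The 3 enzymes were measured well above background on every array. Background was read from 23 probe sets for synthetic tags and a bacterial gene, whose signals had a 95th percentile of 16.8. DCT ranged from 654.3 to 1256.4 with a median of 1056 in open eyes at 6 h, and from 705.0 to 1172.5 with a median of 1058 in goggled eyes at 6 h. At 3 d it ranged from 534.9 to 1942.0 (median 1466) in open eyes and from 649.9 to 2248.0 (median 1216) in goggled eyes. Both 3 d groups spread further than the 6 h groups in both directions, and all 4 groups overlapped.

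TYRP1 had its lowest values in both eyes of 6 h chick 2, at 336.7 open and 319.7 goggled. In open eyes its median was 755.2 at 6 h (highest 1228.5) and 1098 at 3 d (470.7 to 1217.9). In goggled eyes the median was 752.0 at 6 h (highest 985.5) and 842.5 at 3 d (579.3 to 1269.6). TYR ranged from 64.9 to 157.5 (median 97.1) in open and from 79.3 to 155.8 (median 92.3) in goggled eyes at 6 h. At 3 d TYR ranged from 55.2 to 188.7 (median 113.8) in open and from 74.7 to 261.3 (median 99.6) in goggled eyes. For both genes the ranges of all 4 groups overlapped.

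PMEL and MLANA, which act on the melanosome fibrils, had the longest tails. PMEL lay between 62.3 and 175.0 (median 104.7) in open and between 61.3 and 120.3 (median 69.2) in goggled eyes at 6 h. At 3 d PMEL lay between 85.3 and 180.4 (median 139.3) in open eyes, and between 38.9 and 305.6 (median 100.3) in goggled eyes, which held both its lowest and its highest value of 24. MLANA had medians of 45.4, 36.5, 53.5 and 66.0 in open 6 h, goggled 6 h, open 3 d and goggled 3 d eyes. Single eyes stood far above those medians: 210.7 in 6 h open replicate 1, 148.7 in 6 h goggled replicate 5, 165.4 in 3 d open replicate 2 and 416.1 in 3 d goggled replicate 3. The other 20 eyes lay between 22.2 and 94.8.

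The transporters and the regulator behaved differently. OCA2 was the steadiest of the 8, between 228.9 and 347.6 on all 24 arrays, with group medians from 266.3 to 288.4. Its other 2 probe sets had mean signals of 248.1 and 166.6. MITF lay between 124.9 and 222.2, with medians of 174.4 (open) and 165.6 (goggled) at 6 h and 145.1 (open) and 155.8 (goggled) at 3 d. SLC45A2 was close to background: its signal ran from 1.5 to 38.2, and it was above the background percentile on 14 of 24 arrays. Its lowest values, 1.5 and 2.1, were in 3 d open replicates 1 and 2, and all 6 open eyes at 6 h lay at or above 15.7.

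**Figure D1:**
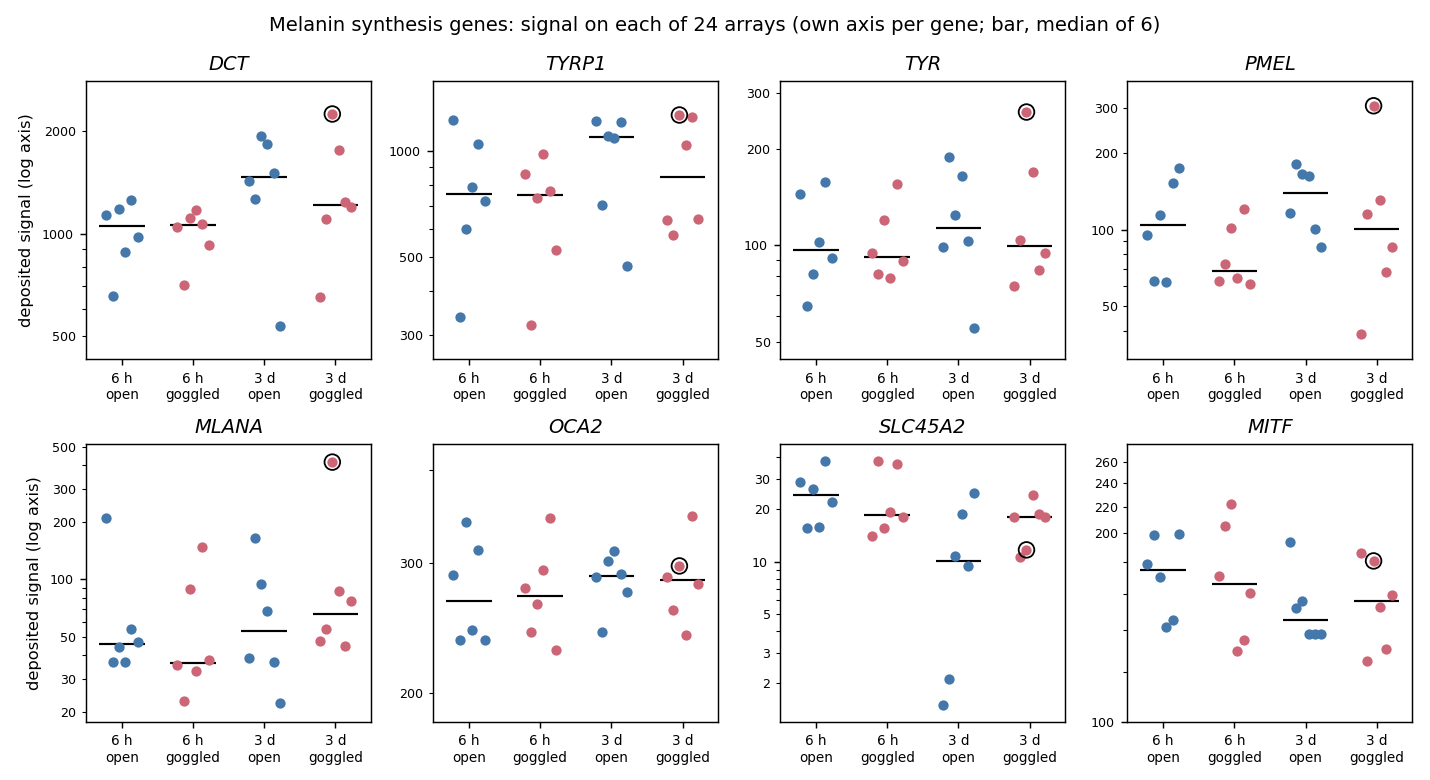
Deposited signal (log axis, own range for each gene) of the brightest probe set of the 8 melanin synthesis genes in open (blue) and goggled (red) eyes at 6 h and 3 d, with 1 point per array and a bar at the median of 6 arrays. The ringed point is 3 d goggled replicate 3, the highest of 24 arrays for DCT, TYRP1, TYR, PMEL and MLANA but not for OCA2, SLC45A2 or MITF, and the groups overlap for every gene.

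MLANA, TYRP1, PMEL, DCT and TYR varied more between eyes of the same group than most probe sets did. The within-group SD on the log2(signal + 16) scale was 0.88 for MLANA, 0.57 for TYRP1 and PMEL, 0.50 for DCT and 0.49 for TYR. Of the 26913 probe sets tested, whose median SD was 0.24, 99.5% had a lower SD than MLANA and 95.8% a lower SD than TYR. Among probe sets of like mean signal, within 0.5 on the log2 scale, 98.8% had a lower SD than DCT and 99.4% a lower SD than TYRP1. SLC45A2, with an SD of 0.36, exceeded 58.7% of probe sets of like signal, MITF (0.22) 54.5% and OCA2 (0.18) 41.5%.

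The first comparison asked whether melanin genes differ between the goggled and the open eye after 6 h. None of the 8 passed the threshold, an adjusted p under 0.05 in limma over all 26913 probe sets. In that comparison 0% of all probe sets passed (639 had an unadjusted p under 0.05, none of them a brightest probe set of the 8). The SE and intervals given for goggled against open eyes come from group means without pairing the eyes. They thus include the spread between chicks, and intervals of a paired fit are not given. The largest difference was that of PMEL, -0.34 ± 0.30 (log2, SE) with a 95% interval from -0.97 to 0.29, and PMEL was lower in the goggled eye of 4 of 6 chicks. MLANA differed by -0.15 (-1.11 to 0.81), TYRP1 by -0.15 (-0.78 to 0.48), SLC45A2 by -0.04 (-0.45 to 0.36), MITF by -0.03 (-0.29 to 0.24), TYR by -0.02 (-0.57 to 0.52), OCA2 by -0.0029 (-0.23 to 0.22) and DCT by 0.00057 (-0.55 to 0.55). Of these 8 values, 7 lay below 0, with a median of -0.03 against -0.0099 over all probe sets, and 53.6% of all probe sets lay below 0. Leaving out the stroma-rich 6 h open replicate 5 gave TYR 0.09, SLC45A2 0.05 and OCA2 0.03, all above 0.

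After 3 d of goggle wear the differences were no clearer. None of the 8 genes passed, where 0.00743% of all probe sets (2 of 26913) did, and limma's adjusted p was between 0.92 and 1.0 for all 8. MLANA was higher in the goggled eye of 5 of 6 chicks, by 0.43 ± 0.47 (log2, SE), with an interval from -0.53 to 1.39. SLC45A2 was also higher in 5 of 6, by 0.33 ± 0.20 (-0.07 to 0.74), but at signals of 11.2 ± 9.17 (SD, n = 6) open and 17.0 ± 5.04 goggled, around the background percentile. PMEL was lower by -0.30 ± 0.30 (-0.93 to 0.33) in 4 of 6 chicks, and by -0.58 without 3 d goggled replicate 3 or -0.07 without 3 d goggled replicate 1. TYRP1 differed by -0.10 (-0.73 to 0.53), DCT by -0.05 (-0.60 to 0.50), TYR by 0.05 (-0.49 to 0.59), MITF by 0.02 (-0.24 to 0.28) and OCA2 by -0.00095 (-0.23 to 0.22). Each interval holds 0, and for the 2 enzymes with the lower spread, DCT and TYR, it reaches from 0.66-fold to 1.42-fold and from 0.71-fold to 1.51-fold on the scale of signal + 16.

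The value of MLANA at 3 d rested on 1 eye. It was 0.01 to 0.79 when single arrays or chicks were left out, with the lowest value without 3 d goggled replicate 3 and the highest without chick 2. Without the 2 stroma-rich arrays at 3 d, MLANA differed by 0.27, PMEL by -0.50, TYRP1 by -0.28, DCT by -0.22 and TYR by -0.03, and 6 of the 8 genes lay below 0. With all arrays 4 of the 8 genes and 58.5% of all probe sets lay below 0 at 3 d. The share of all probe sets without the stroma-rich arrays is not given, so 6 of 8 cannot be called many or few. Of the other tested MITF probe sets, those with mean signals of 64.7 and 41.4 differed by -0.26 and -0.22 and the dimmest, with 15.4, by 0.36, where the brightest differed by 0.02. None of them passed. The other OCA2 probe sets differed by 0.18 and 0.12.

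**Figure D2:**
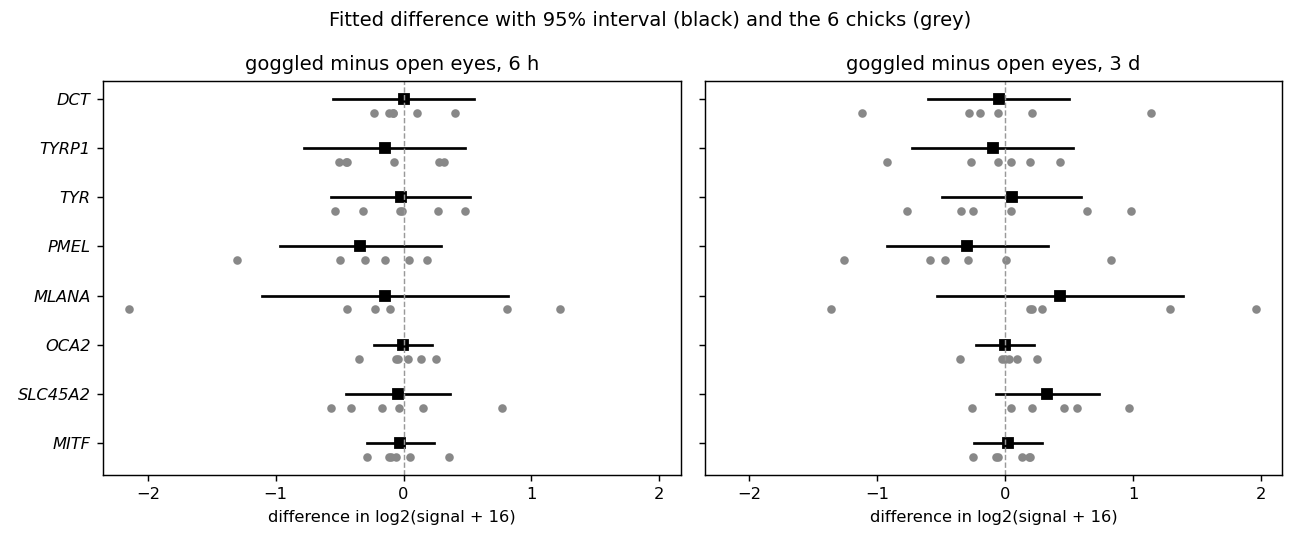
Difference between goggled and open eyes in log2(signal + 16) for the 8 melanin synthesis genes at 6 h (left) and 3 d (right); squares and lines are the fitted difference with its 95% interval and grey points the 6 chicks. Every interval crosses 0, and the chicks spread furthest for MLANA. The intervals come from group means without pairing the eyes, whereas each grey point is a difference within a chick.

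Over both times together, none of the 8 genes passed, where 0.00743% of all probe sets did (1624 of 26913 had an unadjusted p under 0.05). PMEL had the largest difference, -0.32 ± 0.22 (log2, SE; interval -0.76 to 0.13), and was lower in the goggled eye of 8 of 12 chicks (limma adjusted p = 0.90). The goggle effect at 3 d minus that at 6 h passed for none of the 8, with 0% of all probe sets passing. It was 0.58 ± 0.66 for MLANA (interval -0.78 to 1.94) and 0.37 ± 0.28 for SLC45A2 (-0.20 to 0.95).

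The remaining genes of pigment cells gave no calls with the goggle either. None of 11 tested pigment regulators, 11 melanosome membrane and ion transport genes or 24 melanosome biogenesis and transport genes passed at 6 h or at 3 d. Of all probe sets 0% passed at 6 h and 0.00743% at 3 d, so the lack of calls in short lists says little about pigment cells. The median differences of these lists at 6 h were -0.0033, -0.08 and -0.0064, and at 3 d -0.05, -0.00015 and -0.04, against -0.0099 and -0.03 over all probe sets. The smallest p in these lists at 6 h was that of SLC24A4, a potassium-dependent sodium/calcium exchanger, at -0.34 ± 0.11 (log2, SE). At 3 d it was that of HPS4, a subunit of a complex of melanosome biogenesis, at -0.31 ± 0.15. The 19 pigment epithelium genes gave no call at either time, with medians of -0.09 and -0.06. Among them LRAT, which esterifies vitamin A in the RPE, had the smallest p at 3 d, with a value of -0.56 ± 0.16 and an adjusted p of 0.71 in limma.

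Age and duration were compared next, as 3 d against 6 h within open and within goggled eyes. These comparisons also differ in the age of the chicks and, as each time was taken from its own chicks, in the birds. In open eyes none of the 8 genes passed, where 7.34% of all probe sets did. DCT was higher at 3 d by 0.40 ± 0.27 (log2, SE), TYRP1 by 0.32 ± 0.30, PMEL by 0.30 ± 0.30 and TYR by 0.14 ± 0.26, with adjusted p from 0.39 to 0.79. OCA2 differed by 0.05 ± 0.11, MLANA by 0.03 ± 0.47 and MITF by -0.16 ± 0.13.

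SLC45A2 came closest to the threshold in open eyes, at -0.61 ± 0.20 (interval -1.02 to -0.21) with an adjusted p of 0.057 in limma. Its mean signal was 24.4 ± 8.45 (SD, n = 6) at 6 h and 11.2 ± 9.17 at 3 d. It passed, as the only one of the 8, with the W-linked signal described below as a covariate (adjusted p = 0.049) and when 6 h open replicate 4, 3 d open replicate 4 or 3 d open replicate 6, or both eyes of one of these chicks, were left out (adjusted p 0.022 to 0.049). Without the stroma-rich arrays it was -0.42 with an adjusted p of 0.25, and with an offset of 1 in place of 16 it was -1.45. In goggled eyes SLC45A2 differed by -0.24 ± 0.20.

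In goggled eyes none of the 8 brightest probe sets passed between 6 h and 3 d, where 12.7% of all probe sets did. MLANA was 0.60 ± 0.47 higher at 3 d, TYRP1 0.37 ± 0.30, DCT 0.35 ± 0.27, PMEL 0.34 ± 0.30 and TYR 0.22 ± 0.26, while OCA2 differed by 0.05 ± 0.11 and MITF by -0.11 ± 0.13. Without the stroma-rich array of the 3 d goggled group, MLANA was at 0.19, DCT at 0.19, PMEL at 0.05 and TYR at 0.0094. The scaling of the arrays bears on these signs, since centring each array on its median in place of the deposited scaling moved the median of all probe sets from -0.08 to 0.12 in goggled eyes and from -0.05 to 0.07 in open eyes. The calls over all probe sets then went from 1111 higher of 3414 to 4221 of 4900 in goggled eyes, and from 705 of 1975 to 2027 of 2535 in open eyes. With median centring DCT was at 0.53 in open and 0.55 in goggled eyes, TYRP1 at 0.45 and 0.57, and PMEL at 0.42 and 0.54. These 3 lay above the median of all probe sets in both comparisons under both scalings. So did TYR, OCA2 and MLANA, while MITF and SLC45A2 lay below it, and none of the 8 passed.

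The probe sets of OCA2 did not give the same answer. In goggled eyes its second probe set lay between 188.3 and 250.9 (median 210.4) at 6 h and between 252.3 and 302.4 (median 274.4) at 3 d, so the groups did not overlap. It rose by 0.34 ± 0.10 (log2, SE), with an adjusted p of 0.028 in limma. It was the only one called of the 13 tested probe sets of the 8 genes, where 12.7% of all probe sets passed. The share of all probe sets whose groups did not overlap was not computed. The dimmest probe set differed by 0.30 ± 0.11 with an adjusted p of 0.077, and the brightest by 0.05. The call for the second probe set held under 38 of 47 alternative settings. Settings that left out only an open eye could not move this difference between goggled groups, so that count overstates how firm the call was. The call was lost without 6 h goggled replicate 2, 3 or 6 or 3 d goggled replicate 1 or 5, and without chicks 2 and 6 at 6 h or 1 and 5 at 3 d, each left out alone, with adjusted p from 0.054 to 0.068. The OCA2 probe sets also moved with the actin 3'/5' ratio, with r over 24 arrays of -0.55, -0.52 and -0.48 from the brightest to the dimmest, against -0.12 to 0.21 for the brightest probe sets of the other 7 genes. Outside that range, the MITF probe sets with mean signals of 64.7 and 41.4 gave -0.39 and -0.25 with the ratio. The ratio was 2.87 to 4.53 in goggled eyes at 6 h and 3.44 to 5.05 at 3 d, and its part in the OCA2 result was not tested. In open eyes the same probe set differed by 0.10 ± 0.10. Across arrays the 3 probe sets moved together, with r from 0.71 to 0.81 over 24 arrays.

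Between 6 h and 3 d some other pigment cell genes passed, where 7.34% of all probe sets did in open and 12.7% in goggled eyes. TRPM1, a channel of melanocytes that is also on the list of inner retinal neurons as a channel of ON bipolar cells, rose in open eyes by 0.39 ± 0.11 (adjusted p = 0.026, limma) and in goggled eyes by 0.50 ± 0.11 (adjusted p = 0.0040), as 1 of 11 membrane and transport genes. ZEB2, a transcription factor of melanocytes and of neural cells, rose in goggled eyes by 0.27 ± 0.08 as 1 of 11 regulators, and none of the 24 biogenesis genes passed in either comparison. SLC24A5, the melanosomal cation exchanger, was 0.30 ± 0.10 higher in open eyes and 0.29 ± 0.10 in goggled eyes, with adjusted p of 0.064 and 0.054. Of the 19 pigment epithelium genes, SLC16A8, the lactate transporter of the RPE, rose in both comparisons (0.42 ± 0.09 and 0.51 ± 0.09) and TRPM3 fell in both. CRABP1 rose and SLC6A20 fell in goggled eyes. In all, 2 of 19 passed in open eyes and 4 of 19 in goggled eyes. The counts of 1 of 11 and 2 of 19 are near the shares over all probe sets. The 4 of 19 in goggled eyes, 2 higher and 2 lower at 3 d, lie above the share there, a difference that was not tested.

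DCT, TYRP1, TYR, PMEL and MLANA moved together from eye to eye to differing degrees, MITF and SLC45A2 did not, and OCA2 lay between. Over the 24 arrays, as deviations from the group means on the log2 scale, TYR correlated with MLANA (Pearson's r = 0.85), PMEL (0.79) and DCT (0.75), and DCT with TYRP1 (0.76) and PMEL (0.70). These are descriptions over arrays that share a scaling and in which both eyes of a chick count separately. TYRP1 followed MLANA and PMEL less closely, at 0.42 and 0.34. OCA2 gave 0.50 with TYRP1 and 0.32 with DCT, but 0.12 to 0.18 with TYR, PMEL and MLANA. MITF, known as the activator of these genes, ran between -0.33 and 0.13 with the other 7, and SLC45A2 between -0.27 and 0.35. The MITF probe set used here also followed MITF's own other probe sets weakly, with r of 0.25, 0.16, 0.04 and -0.05, so these values are those of a probe set rather than of the gene. The MITF probe sets with mean signals of 64.7 and 41.4 followed each other at 0.63. Their correlation with the other 7 genes was not computed. Without the 3 stroma-rich arrays TYR still correlated with MLANA at 0.80, with DCT at 0.76 and with PMEL at 0.65.

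**Figure D3:**
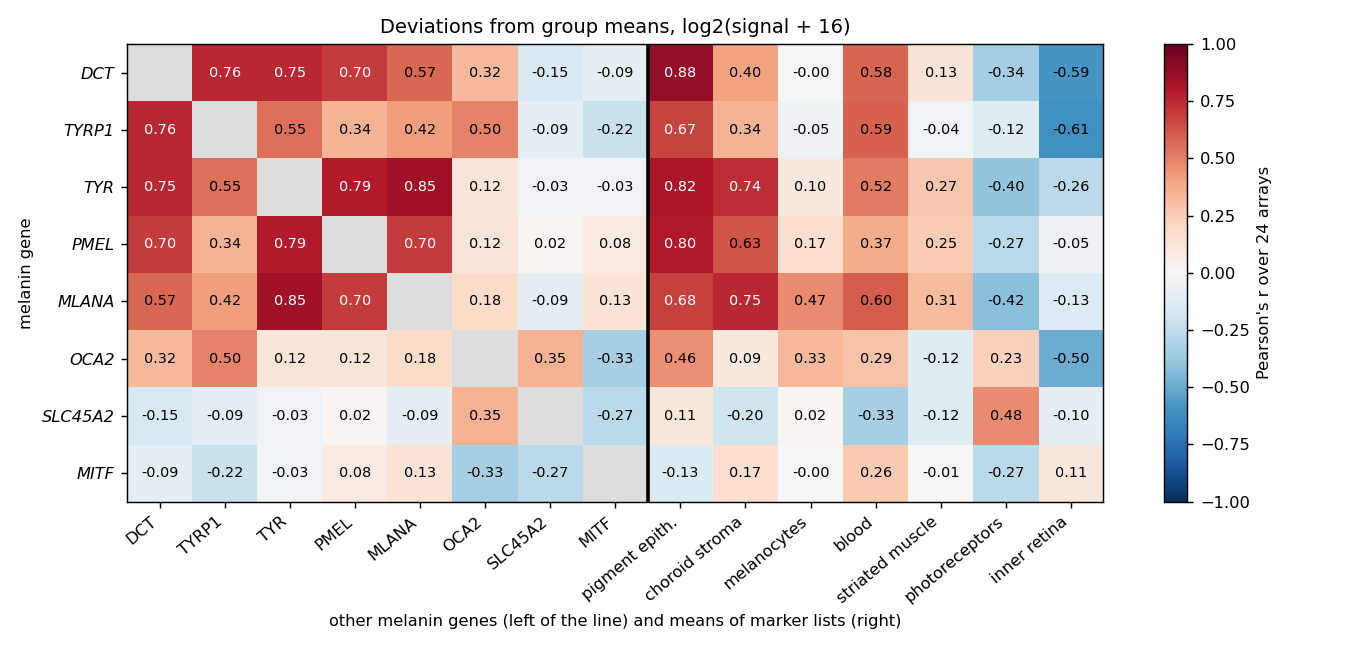
Pearson's r over 24 arrays between the 8 melanin synthesis genes (left of the black line) and with the mean of 7 marker lists (right), all as deviations from group means in log2(signal + 16). DCT, TYRP1, TYR, PMEL and MLANA form a block of positive values and follow the pigment epithelium list, while SLC45A2 and MITF lie between -0.22 and 0.13 with those 5 genes and that list.

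The same split was seen against the pigment epithelium list, which holds no melanin gene. In 12 open eyes, as deviations from the mean of each time, DCT correlated with the list mean at r = 0.85 (Spearman's rho 0.90) and in 12 goggled eyes at 0.92 (rho 0.92). Over the 16 relations computed, the permutation test with Benjamini-Hochberg adjustment gave DCT p = 0.00080 and 0.00016. These relations were not among the planned comparisons, and the permutations exchanged eyes between 6 h and 3 d. Open and goggled eyes came from the same chicks, so their p are not independent of each other. TYR gave r = 0.76 and 0.87 (adjusted permutation p = 0.0100 and 0.00096) and rho 0.66 and 0.72 (0.035 and 0.024). PMEL gave r = 0.78 and 0.83 (adjusted permutation p = 0.0094 and 0.0031) and rho 0.76 and 0.76 (0.022 for both). The raw permutation p were 0.00010 and 1e-05 for DCT, the latter the smallest that 100000 permutations can give, 0.0044 and 0.00018 for TYR, and 0.0035 and 0.00078 for PMEL. Within 6 h and within 3 d, over 6 eyes each, DCT gave 0.96 and 0.91 in open and 0.77 and 0.97 in goggled eyes. Without the 2 eyes farthest from the median of the list, r was 0.77 and 0.83 for DCT, 0.51 and 0.74 for TYR, and 0.63 and 0.58 for PMEL. Without the stroma-rich eyes r was 0.88 and 0.87 for DCT, 0.76 and 0.79 for TYR, and 0.74 and 0.73 for PMEL.

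MLANA and TYRP1 followed the list less evenly. MLANA gave r = 0.56 in open eyes (rho 0.74, permutation p = 0.058 and 0.0076, adjusted 0.085 and 0.022). In goggled eyes MLANA gave r = 0.79 (rho 0.73, permutation p = 0.0011 and 0.0082, adjusted 0.0035 and 0.022). TYRP1 gave 0.67 in open eyes (permutation p = 0.017, adjusted 0.028), where rho was 0.52 and did not pass (permutation p = 0.084, adjusted 0.12). In goggled eyes TYRP1 gave r = 0.68 (rho 0.66, permutation p = 0.016 and 0.022, adjusted 0.028 and 0.035). In open eyes the TYRP1 relation rested on 2 eyes, as r was 0.15 without the pair farthest from the median. OCA2 reached r = 0.68 in open eyes (rho 0.70, permutation p = 0.017 and 0.013, adjusted 0.028 and 0.027) but 0.25 in goggled eyes (adjusted permutation p = 0.52), a difference that was not tested. Within times OCA2 gave 0.85 and 0.93 in open and goggled eyes at 6 h, but 0.32 and -0.24 at 3 d. Within 6 h and 3 d, TYRP1 gave 0.69 and 0.63 in open and 0.82 and 0.62 in goggled eyes. Neither MITF (-0.16 and -0.11) nor SLC45A2 (0.25 and -0.06) passed, with adjusted permutation p from 0.52 to 0.86. For SLC45A2 in open eyes r was 0.97 within 6 h and -0.28 within 3 d, 0.70 without the 2 eyes farthest from the median, and 0.75 without chick 6 at 3 d. Without the stroma-rich eyes r in open and goggled eyes was 0.71 and 0.64 for MLANA, 0.68 and 0.62 for TYRP1, and 0.76 and 0.23 for OCA2.

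**Figure D4:**
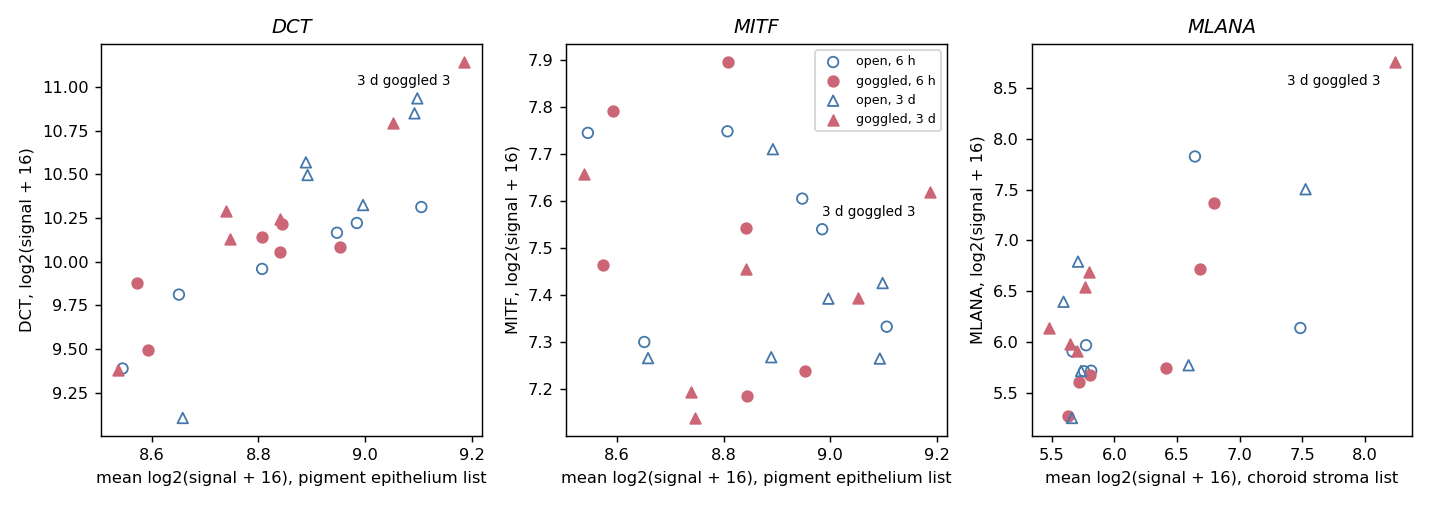
Log2(signal + 16) of DCT and MITF against the mean of the pigment epithelium list, and of MLANA against the mean of the choroid stroma list, on 24 arrays (circles 6 h, triangles 3 d; open blue symbols open eyes, filled red symbols goggled eyes). DCT rises along the pigment epithelium list, MITF shows no trend, and the highest MLANA value belongs to the array with the highest stroma mean, 3 d goggled replicate 3.

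Genes of other tissues moved with some of the 8. With the mean of the choroid stroma list (17 of 21 genes tested), r over 24 arrays was 0.75 for MLANA, 0.74 for TYR and 0.63 for PMEL, against 0.40 for DCT and 0.34 for TYRP1, and without the 3 stroma-rich arrays it was 0.66, 0.44, 0.18, 0.19 and 0.37. The summed signal of that list ran from 893.4 to 4159 in open and 876.0 to 2517 in goggled eyes at 6 h, and from 818.8 to 4279 in open and 728.0 to 7760 in goggled eyes at 3 d. None of COL1A1, PECAM1 and CDH5 was at 0 on any array, and COL1A1 ran from 10.2 to 538.6 with its highest value in 3 d goggled replicate 3. The melanocyte list, of which 4 of 7 genes were tested, had r of 0.47 with MLANA and between -0.05 and 0.33 with the other 7. Without the 3 stroma-rich arrays the list gave 0.23 with MLANA and between -0.22 and 0.51 with the other 7. Its summed signal ran from 406.8 to 591.7 in open and 444.3 to 575.2 in goggled eyes at 6 h, and from 464.9 to 576.5 and 388.3 to 530.4 at 3 d. Among its defining genes EDNRB2 was above the background percentile on 8 of 24 arrays, with its highest value, 94.3, in 3 d goggled replicate 3, whereas KIT had its lowest value of 24, 144.5, on the same array. The mean log2 value of the 4 tested melanocyte genes was at its highest of 24 on that array, at 7.08. Blood genes (3 of 8 tested) gave r of 0.60 with MLANA, 0.59 with TYRP1 and 0.58 with DCT, and neurons of the inner retina -0.61 with TYRP1 and -0.59 with DCT. Without the 3 stroma-rich arrays these were 0.43, 0.60 and 0.49 for blood, and -0.63 and -0.68 for the neurons. The part of these tissues in the melanin gene signals was not tested.

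One eye held the highest values of most of these genes. In 3 d goggled replicate 3, DCT was at 2248.0, TYRP1 at 1269.6, PMEL at 305.6, TYR at 261.3 and MLANA at 416.1, each the highest of 24 arrays. The open eye of the same chick had 1942.0, 1107.1, 165.3, 124.5 and 94.8, so the goggled eye was above it for all 5. GPR143, the melanosomal receptor of ocular albinism, and BEST1, the RPE channel, were also at their highest there, at 275.0 and 102.7. RPE65, RGR, RLBP1, TTR and LRAT were not, at 4522.9, 3991.6, 2933.7, 4007.0 and 46.3. The mean log2 value of all 19 tested pigment epithelium genes was nevertheless the highest of 24 arrays there, at 9.19, and so was that of blood, at 9.64. Of the stromal and vessel genes named above, COL1A1 and CDH5 were at their highest there, at 538.6 and 195.2. PECAM1 was not, at 204.2 against a highest value of 323.2. At the other end, the mean log2 value of the 8 genes was lowest in 3 d open replicate 6 (7.11) and 6 h open replicate 2 (7.12), where 5 of 8 genes were among the lowest 6 of 24 arrays.

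How alike the eyes of 1 chick were also differed by gene. Over 12 chicks, as deviations from the mean of each time and eye, TYRP1 correlated between the eyes at r = 0.73 (permutation p = 0.0074, adjusted over 8 genes 0.059). MITF did so at r = 0.63 (permutation p = 0.030, adjusted 0.12). By rank TYRP1 had rho 0.55 and MITF rho 0.57 (permutation p = 0.073 and 0.058, adjusted 0.19 for both). The other 6 had r from 0.14 to 0.44, with permutation p from 0.15 to 0.67. By rank DCT was the most alike of the 8 (rho 0.66, permutation p = 0.024, adjusted 0.19), and MLANA had r = 0.72 without the 2 chicks farthest from the median. The r of TYRP1 was 0.46 without the 2 chicks farthest from the median. The median difference between a chick's eyes, on the signal + 16 scale, was 1.05-fold for OCA2, 1.09-fold for MITF, 1.15-fold for DCT, 1.23-fold for TYRP1 and 1.54-fold for MLANA. The largest was 4.42-fold, for MLANA in 6 h chick 1, whose open eye had 210.7 and goggled eye 35.3.

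Genes whose pattern over the 24 arrays was most like the mean of the 8 were CA9 (r = 0.88), COL4A4 (0.88), IGFBP7 (0.87), GJA1 (0.87), TIMP3 (0.87), COL8A1 (0.86), TSPO (0.85), ENPP2 (0.84), GPR143 (0.83) and PON1 (0.82), out of 11129 genes ranked. Without the 3 stroma-rich arrays these r were between 0.73 and 0.91. For single genes, a ranking chosen after the values were seen, DCT was closest to WFIKKN2 (0.97), RPE65 (0.94) and RGR (0.94). TYRP1 was closest to CTBS (0.87), and RGR ranked 3 (0.83). PMEL was closest to MYO1E (0.88) and SCARB1 (0.88), with STRA6, the vitamin A receptor of the RPE, at 0.87. TYR had SLC13A3 first (0.87) and IGFBP7 among its nearest 5 (0.83), and IGFBP7 was also the nearest to MLANA (0.93). The nearest to MITF was LPP at 0.80, and to OCA2 SLCO1B1 at 0.76. Without the 3 stroma-rich arrays PMEL gave 0.77 with MYO1E and 0.86 with SCARB1, and TYR 0.84 with SLC13A3 and 0.73 with IGFBP7. MLANA then gave 0.92 with IGFBP7.

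TYRP1, SLC45A2 and MLANA lie on the Z chromosome of the RefSeq assembly GRCg7b, TYR, DCT and OCA2 on chromosome 1, MITF on 12 and PMEL on 34. Hens carry a Z and a W chromosome, cocks a pair of Z, and the Z is only partly balanced between them. The labels give no sex, but HINTW, a gene of the W, separated the birds: it was between 5.3 and 248.6 in both eyes of 4 chicks (numbers 1 and 4 at 6 h, 1 and 5 at 3 d) and between 5353 and 7615 in both eyes of the other 8. None of the 8 genes passed in a limma regression on this signal over 12 chick means with time as a factor, where 1.9% of all probe sets passed. Of 916 tested Z-linked probe sets 35.8% passed, 321 of the 328 of them lower with a higher W-linked signal, against 0.246% of 19551 autosomal ones.

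TYRP1 had a slope of -0.08 ± 0.04 per log2 unit of the W-linked signal (adjusted p = 0.54). Its chick means were 1023 ± 156 (SD, n = 4) in the chicks of low and 747.4 ± 285 (n = 8) in those of high W-linked signal, a log2 difference of 0.51 with an interval from -0.03 to 1.05. The other Z-linked genes had slopes of 0.05 ± 0.06 for MLANA and 0.03 ± 0.02 for SLC45A2. PMEL, which is not on the Z, had the steepest slope of the 8 in the main fit (0.10 ± 0.03, adjusted p = 0.29). Its chick means were 76.0 ± 8.83 in the 4 chicks and 130.7 ± 50.9 in the 8. The log2 difference of PMEL, low minus high, was -0.62 with an interval from -1.05 to -0.19 (adjusted p = 0.20, limma), larger in size than that of TYRP1. The stroma-rich eyes all came from chicks of high W-linked signal. Without those chicks the slope was 0.06 for PMEL (adjusted p = 0.63, limma) and -0.11 for TYRP1. With median centring it was 0.086 for PMEL and -0.091 for TYRP1, so PMEL was not the steepest under either setting.

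The level of TYRP1 relative to DCT was compared between the chicks of low and of high W-linked signal. The difference of the 2 log2 values within an eye, averaged over both eyes, was between -0.20 and -0.08 in the 4 chicks of low and between -1.01 and -0.36 in the 8 of high W-linked signal, and the ranges did not overlap. The means differed by 0.58, or 1.49-fold. It was 0.50 in open eyes, where the ranges overlapped, and 0.66 in goggled eyes, where they did not, and 0.53 to 0.63 when single chicks were left out. Of the 28 pairs among the 8 genes, 5 had ranges that did not overlap. They were TYRP1 with TYR, DCT and PMEL, and PMEL with DCT and OCA2, so that 3 hold TYRP1 and 3 hold PMEL, which is not on the Z. The largest was TYRP1 with PMEL, at 2.19-fold. The share of such pairs among all probe sets was not computed, so 5 of 28 cannot be called many or few. The classes of chicks come from a measured signal and the ratio was chosen after the values were seen, so these values are a description with no test.

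**Figure D5:**
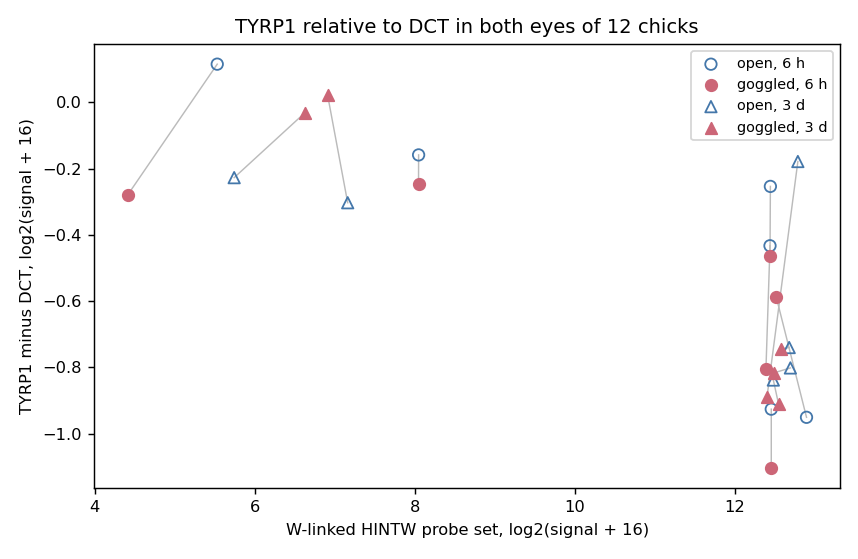
Difference between TYRP1 and DCT in log2(signal + 16) against log2(signal + 16) of the W-linked gene HINTW in 24 eyes (circles 6 h, triangles 3 d; open blue symbols open eyes, filled red symbols goggled eyes), with a grey line joining both eyes of a chick. The 8 eyes of the 4 chicks at the left lie between -0.30 and 0.12, and the 16 eyes at the right between -1.10 and -0.18.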

How the data were processed

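Retina with pigment epithelium of 24 eyes was measured on 24 Affymetrix GeneChip Chicken Genome arrays from 3 µg of total RNA each, per the labels' protocols. The deposited values are linear intensities, 1 per probe set and array; the submitters' processing notes name both GCOS and RMA, and do not say which of them made these values. Because every array was scaled to one trimmed mean, a change shared by most genes would not be seen, and the number of arrays limits the precision. After 96 controls were removed, 16 was added, log2 taken, and the dimmest 30% of probe sets (mean signal under 14.4) left out. Of 38439 probe sets, 27168 had 1 gene name, 177 several and 11094 none. Symbols follow RefSeq GRCg7b by gene ID (26853 matched).

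Group means of all 24 arrays were fitted with limma 3.58.1 in R 4.3.3 (20 residual degrees of freedom), with Benjamini-Hochberg adjustment over 26913 probe sets. The eyes of a chick were not paired in this fit. Fold changes are on the log2(signal + 16) scale, which understates those of dim genes. Permutation tests were two-sided, were not among the planned comparisons, and exchanged values between 6 h and 3 d. Arrays of equal time and replicate number were treated as the eyes of 1 chick, since same-numbered eyes correlated at 0.222 to 0.424 (6 h) and 0.101 to 0.444 (3 d). The pairing is thus inferred from the data, not stated. The fit was tested on simulated data. Alternatives were the chick as a replicate block, other filters, offsets, scalings and variance models, the W-linked signal as a covariate, and leaving out arrays or chicks. The genes and marker lists were chosen with earlier results of these data known. Named are all 8 genes, up to 4 list genes of smallest p with those that passed, and the 10 most alike.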

Additional observations from a re-analysis of the deposited data

Results flagged for a closer look

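Within each group of 6 arrays, the gap between the most extreme array and its neighbour was set against the group's range (Dixon's test at its 95% value, log2 scale). Of 32 groups, 4 held such an array, where chance gives about 1 in 20. MLANA was high in 6 h open replicate 1 (210.7) and in 3 d goggled replicate 3 (416.1). DCT was low in 3 d open replicate 6 (534.9), and MITF high in 3 d open replicate 1 (193.4). On 3 d goggled replicate 3, striated muscle and choroid stroma markers were also high, with mean log2 values of 7.09 and 8.24. On 6 h open replicate 1 the stroma mean was 6.64, against a group median of 5.79, and that of striated muscle 4.72. The blood mean was 9.50 there, the highest of the 6 h open group, and 9.64 on 3 d goggled replicate 3. The part of these tissues in the flagged values was not tested.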

How the results depend on the processing

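Beside single genes, the count of the 8 genes past the threshold stayed at 0 in 6 of 7 comparisons under all alternatives run; in open eyes at 3 d against 6 h it became 1 (SLC45A2) with the W-linked signal as a covariate, and 0 to 1 when arrays or chicks were left out. With the chick as a replicate block, which the inferred pairing of the eyes allows, the count was 0 at 6 h, at 3 d, over both times and for their difference, and the block changed no call. Of 1763 values for single genes under other settings, 1651 kept their sign and side of the threshold, 8 passed it and 104 turned sign, 97 of them of a main value under 0.1 in size. Leaving out arrays outside the groups compared, or changing only the filter or the variance model, cannot change a value's sign. The 1651 include such values, so this count is not a measure of stability. Goggled minus open at 6 h, TYR turned to 0.0020 (quantile normalization) and 0.087 (without stroma-rich arrays), DCT to -0.000086 (offset 64) and -0.011 (quantile), SLC45A2 to 0.045 (without stroma-rich arrays), and OCA2 to 0.0033 (quantile), 0.013 (median centring) and 0.033 (without stroma-rich arrays). At 3 d TYR turned to -0.027 and MITF to -0.019 without stroma-rich arrays, DCT to 0.038 and OCA2 to 0.086 with median centring, MITF to -0.26 and -0.22 and OCA2 to 0.18 and 0.12 on other probe sets. For 3 d minus 6 h, MLANA turned to -0.24 in open eyes without stroma-rich arrays, MITF to 0.020 in open eyes on another probe set and to 0.087 in goggled eyes with median centring. The W-linked slope of MLANA turned to -0.019 without stroma-rich chicks and -0.033 in open eyes only. The cause of these changes was not tested. Leaving out arrays or chicks at 6 h gave TYR -0.13 to 0.087, TYRP1 -0.36 to 0.055, DCT -0.12 to 0.097, MITF -0.10 to 0.041, SLC45A2 -0.21 to 0.061, OCA2 -0.067 to 0.066, MLANA -0.42 to 0.25 and PMEL -0.46 to -0.14. At 3 d it gave TYR -0.16 to 0.21, TYRP1 -0.28 to 0.069, DCT -0.30 to 0.16, MITF -0.028 to 0.086, PMEL -0.58 to -0.073 and OCA2 -0.057 to 0.070, and for 3 d minus 6 h MLANA -0.23 to 0.35 in open and OCA2 -0.0037 to 0.12 in goggled eyes. SLC45A2 was left out by the filter at the 50th percentile, and near background its value depends on the offset.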
